A study of Mus musculus with 21 samples.

Results

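Ion and lipid pumping ATPases are membrane proteins that use ATP to move protons, cations, polyamines or phospholipids across a membrane. The V-ATPase is a rotary proton pump made of a cytosolic V1 sector, which hydrolyzes ATP, and a membrane V0 sector, which carries the protons; it acidifies lysosomes, endosomes and synaptic vesicles, and the resulting proton gradient drives neurotransmitter uptake into vesicles. The P-type pumps instead form a phosphorylated intermediate, and include the Na/K pump that restores ion gradients after action potentials, the calcium pumps that clear cytosolic calcium after synaptic activity, and the flippases that keep phospholipids on one leaflet of the membrane.

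The genes described here are the rows of the 24 h cortex table whose Ensembl identifier maps, in the GENCODE annotation of GRCm38, to a symbol of the V-ATPase (Atp6), the Na/K pump (Atp1), the calcium pumps (Atp2a, Atp2b and Atp2c), the copper pumps (Atp7), the flippases (Atp8, Atp9, Atp10 and Atp11) or the P5 pumps (Atp13). Of 67 annotated genes of this kind, 38 were among the 5544 genes of the table, and the other 29 were not analysed here. The 38 comprised 9 V1 genes, 6 V0 genes, 2 V-ATPase accessory genes, 6 Na/K pump genes, 6 calcium pump genes, 6 flippase genes and 3 P5 genes. Both annotated copper pump genes, Atp7a and Atp7b, were among the 29.

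RNA-seq of total RNA from the cortex compared mice after high-frequency head impact (HF-HI) with sham mice, to find which transcripts differ at 24 h after the final impact. All mice were wild-type (WT in the table) C57BL/6 males, of the substrain C57Bl/6J per the study's methods, labelled as 12 weeks old. The 11 HF-HI mice were anesthetized with isoflurane and received successive closed-head impacts on consecutive days, and the 10 sham mice went through the procedure, isoflurane included, with the impacts left out. Each mouse gave 1 library, and each value is a variance-stabilized log2 expression level normalized for library depth, on which a difference of 1 is about a doubling for a well expressed gene and understates the change of a low one.

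Across the table, limma called 66.3% of genes as different between the groups at a Benjamini-Hochberg adjusted p under 0.05, with 32.6% higher and 33.6% lower in HF-HI, and 13.5% of genes had group ranges that did not overlap. Counts of genes called in each class or list below are to be read against these shares. With libraries centred on their medians the genes called split into 1448 higher and 2376 lower. Every library was nearest to a library of its own group. All 15 neuronal marker genes listed were in the table, and their summed level was 16.77 to 16.88 in sham and 16.89 to 17.03 in HF-HI libraries. The summed astrocyte markers (14 of 15 in the table) lay at 16.70 to 16.83 in sham and 16.82 to 16.90 in HF-HI. Oligodendrocyte markers (10 of 12) lay at 15.38 to 16.10 and 15.42 to 16.08. Few markers of microglia (2 of 11), endothelium (3 of 10), red blood cells (2 of 5) and choroid plexus (1 of 7) were in the table, and the summed levels of each overlapped between the groups. Of the neuronal markers 10 were higher and 1 lower (median difference 0.15, largest in Slc17a7 at 0.89), of the astrocyte markers 6 and 3 (0.02, Ntsr2 at 0.47) and of the oligodendrocyte markers 3 and 0 (-0.0014, Mbp at 0.39). With the GC trend removed the counts were 8 and 1, 5 and 5, and 2 and 2. Among the few others, 1 gene was higher and 1 lower for microglia and for endothelium, where Flt1 (0.28) led, and no red blood cell or choroid plexus gene was called by limma. In whole cortex, fewer cells of a type and less RNA per cell cannot be told apart.

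Median depth and base composition also differed between the groups, though their ranges overlapped. Total depth is unknown, and depth relative to the median library was 0.580 to 1.26 in sham and 0.548 to 1.64 in HF-HI. The slope of a library's values on exonic GC content was taken per 10 percentage points. It ran from -0.231 to 0.00582 in sham (median -0.111) and from -0.0385 to 0.161 in HF-HI (median 0.109). For this reason each difference below is also given, where it matters, after removal, library by library, of the trend with GC content; 29.2% of genes were then higher and 31.0% lower. The part of GC content in the differences was not tested beyond that.

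Of the 38 pump genes, 28 (73.7%) passed the test, 15 of them higher (39.5%) and 13 lower (34.2%) in HF-HI, shares close to those of the whole table. The median difference was 0.03 for the pump genes and -0.0086 for all genes. Most differences were small, since 17 of the 28 were under 0.25 on the log2 scale. Of the 9 V1 genes 7 fell and 1 rose, and the V0, calcium pump, flippase and P5 classes also held called genes of both directions. Differences in direction between the classes were not tested. The 3 largest differences were those of Atp6v0c, Atp6v1g2 and Atp1b2, all higher in HF-HI.

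**Figure D1:**
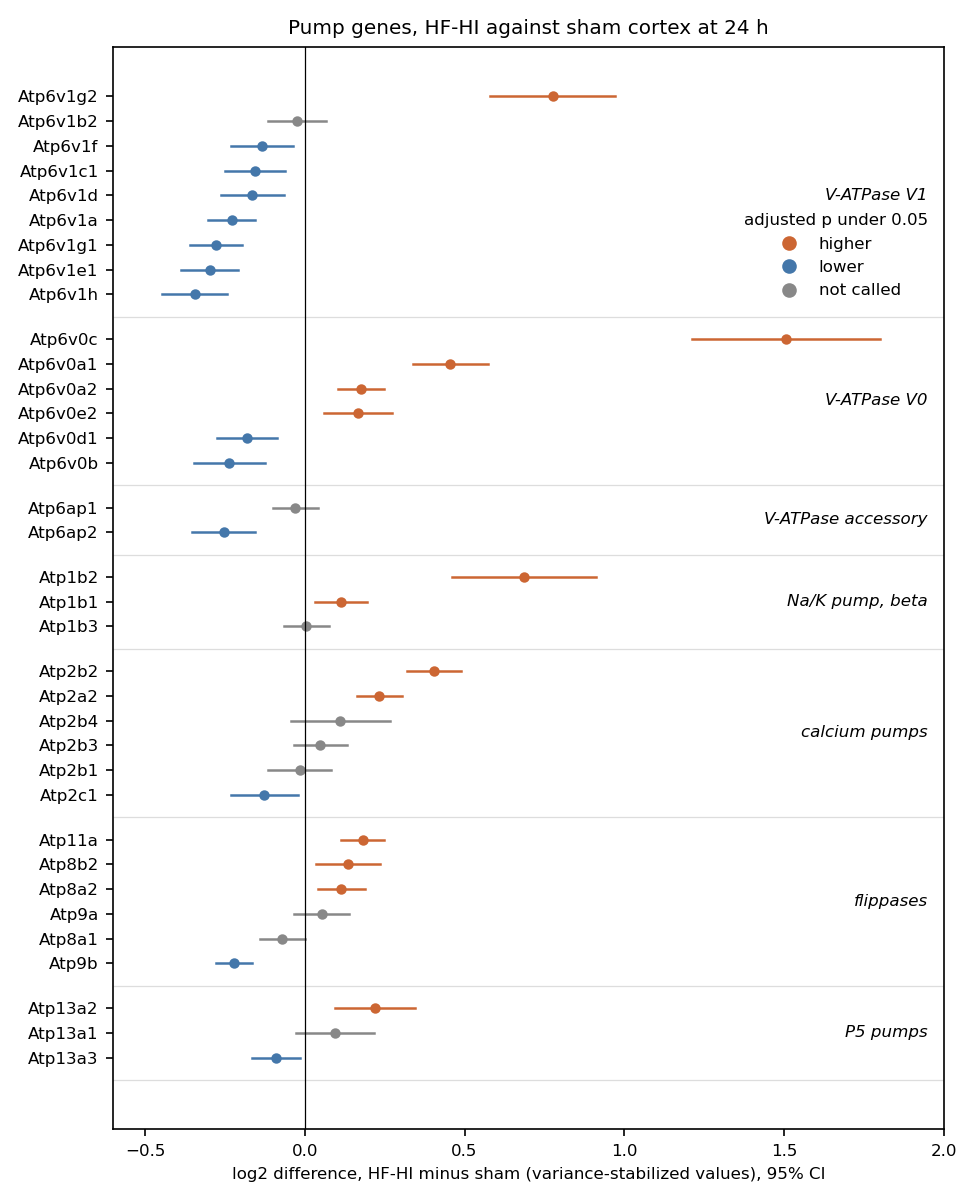
Log2 difference, HF-HI minus sham, of 35 of the 38 pump genes, each with its 95% confidence interval, grouped by class and coloured by the limma call at an adjusted p under 0.05. Atp6v0c at 1.51 lies furthest to the right, and 7 of the 9 V1 genes are coloured as lower.

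The V0 sector contains the ring of proteolipid subunits that turns as protons pass. Atp6v0c (ENSMUSG00000024121, chromosome 17, 24163866 to 24169702, GRCm38) encodes the proteolipid that makes up most of that ring. Its log2 value in the 10 sham libraries was 10.43 at the lowest, 11.24 at the median and 11.86 at the highest, and in the 11 HF-HI libraries 12.58, 12.75 and 12.90. The groups did not overlap, and the sham libraries were spread over a wider range (SD 0.51, n = 10) than the HF-HI libraries (SD 0.095, n = 11). Sham values were lowest in replicates 1 to 4 (10.43 to 10.98) and highest in replicates 8 to 10 (11.66 to 11.86). The difference from sham averages over these levels, and the cause of the sham pattern was not tested. The difference was 1.51 (SE 0.14, 95% CI 1.21 to 1.80), a 2.84-fold higher level (limma adjusted p = 8.76e-09), and 1.34 with the GC trend removed. The annotation holds 2 pseudogenes of Atp6v0c, and reads shared with such copies may have been split by the counting. Atp6v0b encodes the related c'' proteolipid of the same ring, and it moved the other way. It ranged from 10.34 through a median of 10.45 to 10.80 in sham and from 10.07 through 10.26 to 10.36 in HF-HI. Of the 11 HF-HI libraries, 8 lay below every sham library. The difference was -0.24 (SE 0.053, limma adjusted p = 0.000506), and -0.43 with the GC trend removed. Within each library, Atp6v0c exceeded Atp6v0b by -0.04 to 1.42 in sham and by 2.31 to 2.79 in HF-HI, on the log2 scale.

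Atp6v0a1 (ENSMUSG00000019302, chromosome 11, 101009452 to 101063719) encodes the a subunit isoform found on synaptic vesicles, which lines the proton path beside the ring. Its values were 11.72, 12.07 and 12.22 at the lowest, median and highest sham library and 12.26, 12.51 and 12.56 in HF-HI, with no overlap between the groups. It rose by 0.46 (SE 0.056, 95% CI 0.34 to 0.57, limma adjusted p = 3.59e-07), and by 0.41 with the GC trend removed. Atp6v0a2, the isoform known from the Golgi and endosomes, was expressed at a lower level per length of transcript in sham (5.67 against 9.32 per kb for Atp6v0a1, log2 scale) and rose by 0.18 (adjusted p = 0.000125), and was not called with GC and length trends removed (0.09, adjusted p = 0.0505). Atp6v0e2, a small membrane subunit, rose by 0.17 (adjusted p = 0.00653), and the difference was 0.07 and not called (adjusted p = 0.138) with the GC trend removed. Atp6v0d1, which couples the ring to the central stalk, fell by 0.18 (adjusted p = 0.00131) and by 0.31 with the GC trend removed.

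The V1 sector is built of a catalytic hexamer of A and B subunits, a central rotor of D and F, and peripheral stalks of E and G that are joined to the membrane through C and H. Its genes fell, with 1 exception and 1 gene that was not called. Atp6v1h (chromosome 1, 5070018 to 5162529), the regulatory H subunit, ranged from 10.64 through 10.89 to 11.03 in sham and from 10.30 through 10.53 to 10.72 in HF-HI, so that 10 of the 11 HF-HI libraries lay below every sham library. It fell by 0.34 (SE 0.049, 95% CI -0.45 to -0.24, limma adjusted p = 2.72e-06), and the difference was -0.22 with the GC trend removed. The stalk gene Atp6v1e1 fell by 0.30 (adjusted p = 3.06e-06), and the catalytic subunit Atp6v1a by 0.23 (adjusted p = 7.38e-06). Atp6v1c1 (-0.16), the rotor subunit genes Atp6v1d (-0.16) and Atp6v1f (-0.13) fell by less, with adjusted p of 0.00411, 0.00417 and 0.0153. Atp6v1b2, the B subunit isoform of brain, differed by -0.02 (95% CI -0.11 to 0.07, adjusted p = 0.654). With the GC trend removed Atp6v1d was no longer called (-0.07, adjusted p = 0.154), while Atp6v1f was further from sham (-0.29). With the trends on both GC content and exonic length removed, Atp6v1f (-0.06, adjusted p = 0.175) and Atp6v1d (-0.04, adjusted p = 0.315) were not called.

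The exception was Atp6v1g2 (ENSMUSG00000024403, chromosome 17, 35233660 to 35238767), the G subunit isoform that is enriched in neurons. Its sham values were 9.69 at the lowest, 10.26 at the median and 10.51 at the highest library, and its HF-HI values 10.56, 11.02 and 11.15. As for Atp6v0c, sham replicates 1 to 4 were the lowest (9.69 to 10.01), so these genes share part of their sham spread. The groups did not overlap. It rose by 0.78 (SE 0.095, 95% CI 0.58 to 0.97, limma adjusted p = 3.29e-07), a 1.71-fold higher level, and by 0.66 with the GC trend removed. Nfkbil1 overlaps 2133 bases of this gene on the opposite strand and was not analysed here. The broadly expressed isoform Atp6v1g1 fell by 0.28 (adjusted p = 1.95e-06), and 10 of 11 HF-HI libraries lay below every sham library. With GC and length trends removed the difference of Atp6v1g1 was -0.07 and not called (adjusted p = 0.0713). The difference between the G isoforms, Atp6v1g2 minus Atp6v1g1 within a library, was therefore -0.27 to 0.76 in sham and 0.94 to 1.58 in HF-HI. The summed neuronal markers were also higher in every HF-HI library than in any sham library, and their part in the rise of Atp6v1g2 was not tested.

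**Figure D2:**
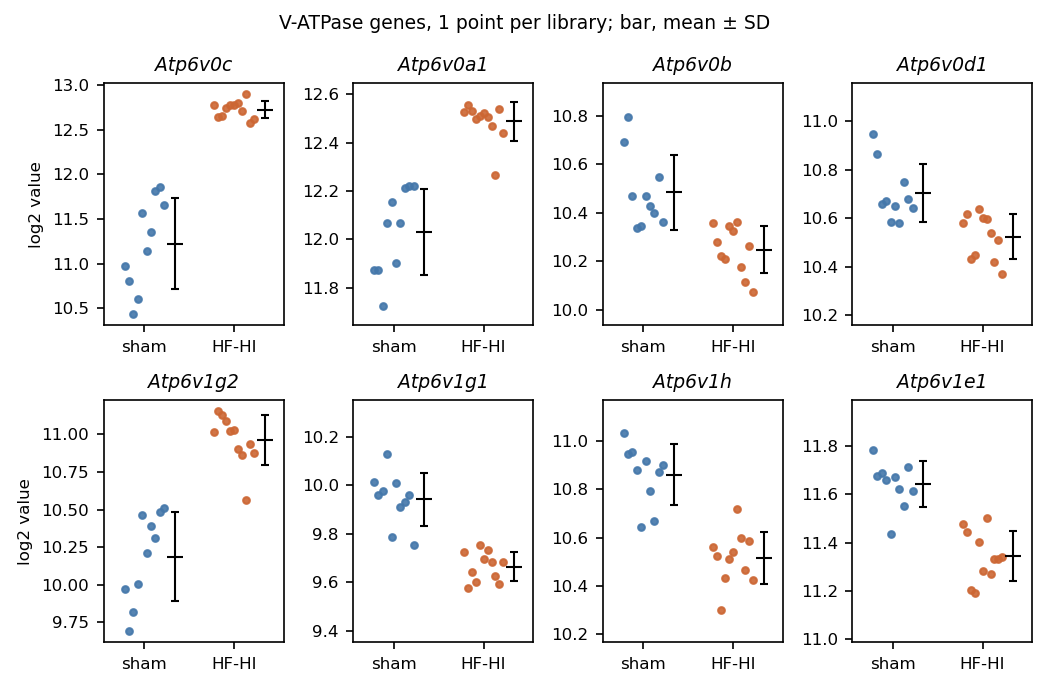
Log2 value of 8 V-ATPase genes in each library, sham (n = 10) and HF-HI (n = 11), with bars for the mean and SD beside the points; each panel has its own vertical scale. Atp6v0c, Atp6v0a1 and Atp6v1g2 are higher in all HF-HI libraries than in any sham library, whereas Atp6v0b, Atp6v0d1, Atp6v1g1, Atp6v1h and Atp6v1e1 are lower on average.

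Taken sector by sector, 4 V0 genes rose and 2 fell (median difference 0.17), and 1 V1 gene rose and 7 fell (median -0.16). Of all genes, 32.6% rose and 33.6% fell. After removal of the GC trend the medians were 0.09 and -0.17. There, 3 V0 genes were higher and 2 lower, and 1 V1 gene was higher and 6 lower, beside 29.2% and 31.0% of all genes. With GC and length trends removed the medians were 0.14 for V0 and -0.068 for V1, with 5 genes called in each. The V0 genes are richer in GC (median 52.8% of exonic bases) than the V1 genes (45.8%). The mean deviation of the 6 V0 genes from their all-library means was -0.36 to 0.0054 in sham and 0.052 to 0.20 in HF-HI. For the 9 V1 genes it was -0.033 to 0.12 in sham and -0.11 to 0.045 in HF-HI. Without Atp6v0c the V0 mean was -0.12 to 0.037 in sham and -0.11 to 0.11 in HF-HI, ranges that overlap. Subtracting V1 from V0 within each library gave -0.40 to -0.032 in sham (median -0.22) and 0.13 to 0.27 in HF-HI (median 0.20), and -0.30 to -0.033 against 0.11 to 0.18 with the GC trend removed, without overlap in either case. That separation leaned on Atp6v0c, because without it the difference of V0 and V1 was -0.22 to -0.0036 in sham and -0.037 to 0.15 in HF-HI, which overlap. With both Atp6v0c and Atp6v1g2 left out it was -0.29 to -0.033 in sham and -0.031 to 0.23 in HF-HI, ranges that nearly touch.

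**Figure D3:**
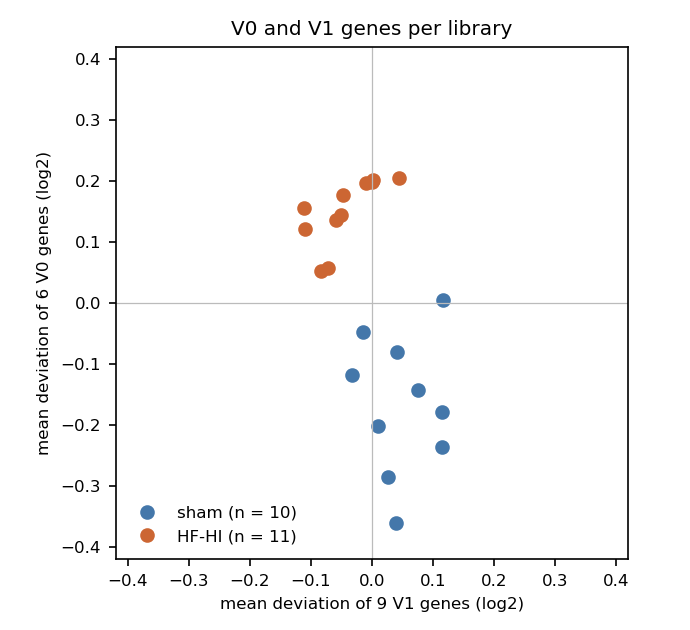
Mean log2 deviation of the 6 V0 genes (vertical) against that of the 9 V1 genes (horizontal), 1 point per library, each gene taken relative to its mean over all 21 libraries. HF-HI libraries lie above sham libraries, from 0.052 to 0.20 against -0.36 to 0.0054 on the V0 axis, a separation that is lost without Atp6v0c (-0.11 to 0.11 against -0.12 to 0.037), and overlap them on the V1 axis.

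Of the accessory genes, Atp6ap2, which encodes the prorenin receptor, ranged from 11.72 through 11.95 to 12.12 in sham and from 11.50 through 11.71 to 11.88 in HF-HI. It fell by 0.25 (SE 0.048, limma adjusted p = 7.37e-05), with 7 of 11 HF-HI libraries below every sham library, and by 0.12 with the GC trend removed. With GC and length trends removed its difference was -0.03 and not called (adjusted p = 0.608). Atp6ap1, the Ac45 subunit, differed by -0.03 (adjusted p = 0.448). The list of genes that assemble or regulate the V-ATPase held 15 symbols, of which Ccdc115 and Vma22 name the same gene. Of these 8 were in the table, where 2 rose and 5 fell (median -0.12). With the GC trend removed 2 were higher and 1 lower (median -0.012). Rnasek, a small membrane protein of the V0 sector, rose by 1.00 from 7.97 ± 0.26 (SD, n = 10) to 8.96 ± 0.071 (SD, n = 11) without overlap (limma adjusted p = 3.77e-10), and by 0.80 with the GC trend removed. The rabconnectin genes Dmxl1 and Dmxl2, whose products help V1 join V0, each fell by 0.17, and with the GC trend removed Dmxl2 was still lower (-0.10) while Dmxl1 differed by 0.00068 (adjusted p = 0.979).

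Many lysosomal and V-ATPase genes carry the E-box CACGTG near their start, the core of the CLEAR element read by TFEB and related factors. RefSeq promoter windows (GRCm38.p6, 250 bases before to 50 bases after a start) were at hand for 24 of the 38 pump genes, 12 of them V-ATPase genes. CACGTG, which reads the same on both strands, occurred in 3 of the 12 V-ATPase genes, 5 of the 24 pump genes (20.8%), 12.7% of the 4329 table genes with a window and 8.09% of all 27025 genes with one. The 3 V-ATPase genes with a match, Atp6v1a, Atp6v0b and Atp6v0d1, all fell, as did 7 of all 12 V-ATPase genes with a window. The windows of the other 9 held no match, which says nothing about other positions, and of these 9 genes 4 fell, 4 rose and 1 was not called. The matches outside the V-ATPase were those of Atp1b3 and Atp2b1, and neither gene was called. The longer form TCACGTGA, which contains CACGTG, occurred in 2 of the 12 V-ATPase genes, Atp6v1a and Atp6v0d1, in Atp2b1, in 2.66% of the table genes with a window and in 1.13% of all genes. All matches are printed below to show the letters around them in genes that fell and genes that were not called, with CACGTG in capitals and each stretch read 5′ to 3′, on the plus strand for Atp2b1 and on the minus strand for the others.
Atp6v1a (chr16:44139373-44139402): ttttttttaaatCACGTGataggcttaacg
Atp6v0b, upstream match (chr4:117887348-117887377): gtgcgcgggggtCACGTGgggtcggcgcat
Atp6v0b, downstream match (chr4:117887330-117887359): gggtcggcgcatCACGTGcgccggtcaggt
Atp6v0d1 (chr8:105566050-105566079): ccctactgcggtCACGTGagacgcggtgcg
Atp1b3 (chr9:96363919-96363948): ccgagcggggcaCACGTGctgccggttccc
Atp2b1 (chr10:98914638-98914667): cgcgggccgcgtCACGTGaccgcgcccagc
Counted from the start, with -1 as the last base before it, the letters begin at -131 in Atp6v1a, at -36 and -18 in Atp6v0b, at -221 in Atp1b3, at -3 in Atp6v0d1, where they span the start, and at 9 in Atp2b1, past it. A match is a description of the letters only, and binding was not measured here. Of 7 listed genes of the TFEB family and its regulators, 3 were in the table, and all 3 encode regulators. None of the factors themselves (Tfeb, Tfe3, Tfec and Mitf) was in the table, so their levels were not analysed here. Of the 3 regulator genes, 0 were higher and 1 was lower. That gene, Fnip1, a partner of folliculin, fell by 0.15 (limma adjusted p = 0.00115) but differed by -0.01 (adjusted p = 0.755) with the GC trend removed. With that trend removed 0 genes of the list were called higher and 2 lower, Fnip1 not among them.

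The V-ATPase gradient is spent by chloride-proton exchangers in endosomes and by transporters that load synaptic vesicles. Of 6 listed genes, the exchangers and the Clcn7 partner Ostm1, 5 were in the table, with 2 higher and 2 lower. Ostm1 was among the lower. Clcn6, the late endosomal exchanger, rose by 0.24 (limma adjusted p = 6.54e-05), and by 0.14 with the GC trend removed. Of 10 listed genes of vesicular transporters and vesicle glycoproteins, 6 were in the table, with 4 higher and 1 lower (median 0.15). With the GC trend removed 2 were higher and 1 lower (median 0.07). The glycoprotein genes Sv2a and Sv2c were among the 4 higher, and Sv2b was the 1 lower. Slc17a7, the vesicular glutamate transporter of cortical excitatory neurons and also 1 of the neuronal markers above, rose by 0.89 (adjusted p = 8.88e-11) from 12.35 ± 0.18 (SD, n = 10) to 13.24 ± 0.10 (SD, n = 11), without overlap, and by 0.71 with the GC trend removed.

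The Na/K pump pairs a catalytic subunit with a beta subunit that brings it to the membrane. Over its 6 genes in the table the median difference was 0.19, and 0.11 with the GC trend removed. Its beta subunit genes are described here, of which 2 of 3 rose and 1 was not called. Atp1b2 (ENSMUSG00000041329, chromosome 11, 69599736 to 69605942), the beta subunit known as the adhesion molecule on glia, had the largest difference of the beta genes. Its values were 8.84, 9.02 and 9.54 at the lowest, median and highest sham library and 9.39, 9.59 and 10.28 in HF-HI, and 8 of 11 HF-HI libraries lay above every sham library. It rose by 0.69 (SE 0.11, 95% CI 0.46 to 0.91, limma adjusted p = 1.03e-05), and by 0.59 with the GC trend removed. The HF-HI values were uneven (SD 0.33, against 0.20 in sham). Replicates 3, 4 and 11 of HF-HI lay at 10.14 to 10.28 and the others at 9.39 to 9.78. Atp1b1, the most abundant of the beta genes per length of transcript, rose by 0.11 (adjusted p = 0.0141), and was not called with the GC trend removed (0.06, adjusted p = 0.267) or with libraries centred on their medians (0.06, adjusted p = 0.170). The summed astrocyte markers were also higher on the whole in HF-HI, though as single genes 6 were called higher and 3 lower. With the GC trend removed 5 of these markers were higher and 5 lower. The part of astrocyte markers in the rise of Atp1b2 was not tested. Atp1b3 differed by 0.0046 (95% CI -0.07 to 0.08, adjusted p = 0.912), and was called higher only with GC and length trends removed (0.13, adjusted p = 0.00192). Of 11 listed modulators of the pump, 1 was in the table, Fxyd6, with a difference of -0.08 (adjusted p = 0.162).

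**Figure D4:**
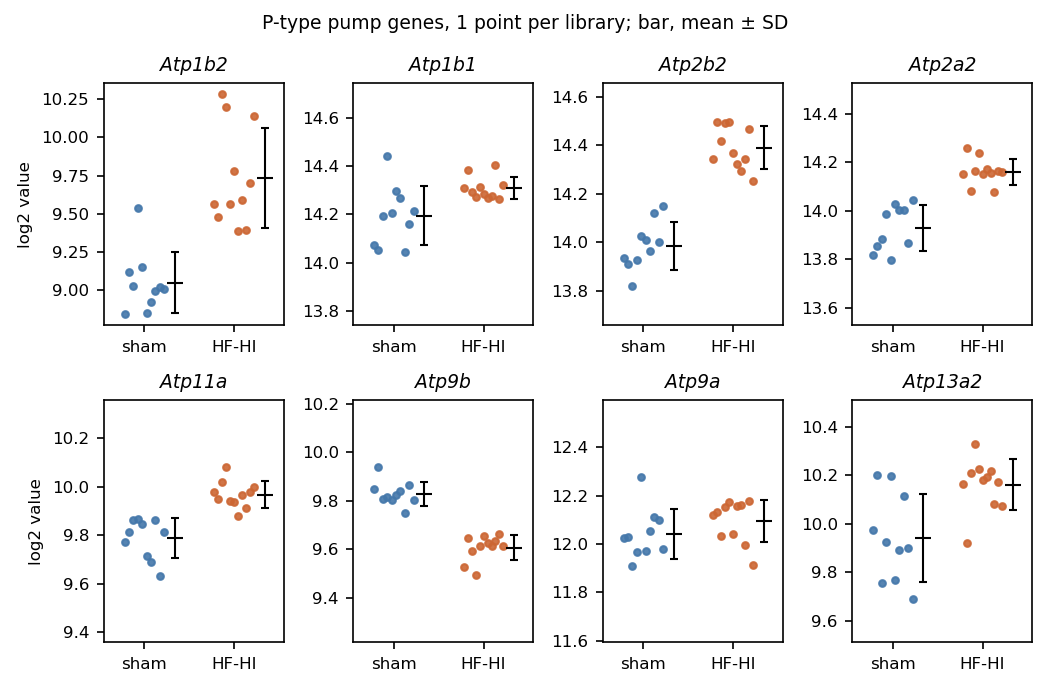
Log2 value of 8 P-type pump genes in each library, sham (n = 10) and HF-HI (n = 11), with bars for the mean and SD beside the points; each panel has its own vertical scale. Atp2a2, Atp2b2 and Atp11a are higher and Atp9b is lower in all HF-HI libraries than in any sham library, while the values of Atp9a and Atp13a2 overlap between the groups.

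Calcium leaves the cytosol through plasma membrane pumps (PMCA, Atp2b1 to Atp2b4), a pump of the endoplasmic reticulum (SERCA, Atp2a2) and a pump of the Golgi that also moves manganese (SPCA, Atp2c1). Of these 6 genes 2 rose, 1 fell and 3 were not called (median 0.08), and with the GC trend removed 2 were higher and 0 lower. Atp2b2 (chromosome 6, 113743831 to 114042613), a fast PMCA isoform of neurons, had sham values of 13.82, 13.98 and 14.15 at the lowest, median and highest library and HF-HI values of 14.25, 14.37 and 14.50. The groups did not overlap, and the rise was 0.40 (SE 0.040, 95% CI 0.32 to 0.49, limma adjusted p = 2.00e-08), or 0.30 with the GC trend removed. The other plasma membrane pumps were not called. Atp2b1 differed by -0.02 (95% CI -0.12 to 0.08), Atp2b3 by 0.05 (95% CI -0.03 to 0.13) and Atp2b4 by 0.11 (95% CI -0.04 to 0.27). Atp2b2 minus Atp2b1 within a library was -0.39 to -0.0053 in sham and -0.12 to 0.49 in HF-HI.

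Atp2a2 (chromosome 5, 122453513 to 122502225), which refills the calcium store of the endoplasmic reticulum, ranged from 13.80 through 13.94 to 14.04 in sham and from 14.08 through 14.16 to 14.26 in HF-HI, again without overlap. It rose by 0.23 (SE 0.034, limma adjusted p = 3.78e-06), a value that stayed at 0.23 with the GC trend removed. Atp2c1 fell by 0.13 (adjusted p = 0.0315) and was not called once the GC trend was removed (-0.03, adjusted p = 0.530). Without sham replicate 3, 6 or 7, or without HF-HI replicate 2 or 5, the adjusted p of Atp2c1 also passed 0.05, reaching 0.0685 at most. Of 15 listed genes of other calcium extrusion and pump regulation, 8 were in the table, with 2 higher and 1 lower (median 0.03), or 2 and 2 with the GC trend removed. The sodium-calcium exchanger Slc8a2 rose by 0.36 (adjusted p = 1.07e-05), and the difference was 0.11 (adjusted p = 0.0676) with the GC trend removed.

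Flippases move phosphatidylserine and other lipids to the cytosolic leaflet, and most of them need the partner Tmem30a to leave the endoplasmic reticulum. Of 6 flippase genes in the table, 3 rose, 1 fell and 2 were not called (median 0.08), and with the GC trend removed 2 were higher and 2 lower (median 0.02). Atp11a, a phosphatidylserine flippase of the plasma membrane, ranged from 9.63 through 9.81 to 9.87 in sham and from 9.88 through 9.97 to 10.08 in HF-HI. The groups did not overlap, by a narrow margin, and the rise was 0.18 (SE 0.033, 95% CI 0.11 to 0.25, limma adjusted p = 4.98e-05). Atp9b, a Golgi member of the family, went the other way, from 9.75, 9.82 and 9.94 at the lowest, median and highest sham library to 9.49, 9.61 and 9.66 in HF-HI, without overlap. It fell by 0.22 (SE 0.027, 95% CI -0.28 to -0.17, adjusted p = 3.42e-07).

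Its relative Atp9a, a protein of endosomes, had overlapping values of 11.91, 12.03 and 12.28 at the lowest, median and highest sham library and 11.91, 12.13 and 12.18 in HF-HI. The difference of Atp9a was 0.05 (limma adjusted p = 0.262), and it turned to -0.18 (adjusted p = 7.39e-05) with the GC trend removed. Atp9a is among the members richest in GC, with 58.1% of exonic bases. Atp8b2 rose by 0.14 (adjusted p = 0.0180) and was not called with the GC trend removed (0.02). Atp8a2 rose by 0.11 (adjusted p = 0.00712). Neither was called with libraries centred on their medians (0.08 and 0.06) or with GC and length trends removed (-0.01 and 0.03). Atp8a2 shares part of its locus and strand with Nupl1, which was lower (-0.21). Atp8a1, the more abundant of the paired phosphatidylserine flippases of neurons, differed by -0.07 (adjusted p = 0.0695), and was called lower with that centring (-0.12, adjusted p = 0.00404). With the GC trend removed Atp8a1 was at 0.01 and not called (adjusted p = 0.771). The list of partners and scramblases held 13 symbols, of which Ano6 and Tmem16f name the same gene. Of these 6 were in the table, with 2 higher and 3 lower (1 and 3 with the GC trend removed). Tmem30a itself fell by 0.27 (adjusted p = 0.000104), or by 0.14 with the GC trend removed.

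The P5 pumps act in the endoplasmic reticulum and in endosomes and lysosomes. Each of the 3 genes in the table changed sign when the GC trend was removed. Atp13a2, the lysosomal polyamine exporter known from an inherited form of parkinsonism, ranged from 9.69 through 9.91 to 10.20 in sham and from 9.92 through 10.18 to 10.33 in HF-HI, and rose by 0.22 (SE 0.061, limma adjusted p = 0.00305). The value was -0.06 (adjusted p = 0.251) with the GC trend removed, and at 59.5% Atp13a2 is the member with the highest GC content. Atp13a1, which removes misplaced proteins from the endoplasmic reticulum membrane, ranged from 8.22 through 8.47 to 8.74 in sham and from 8.26 through 8.61 to 8.72 in HF-HI. It differed by 0.09 (adjusted p = 0.160), and by -0.15 (adjusted p = 0.00575) with the GC trend removed. Atp13a3, an endosomal polyamine pump, ranged from 10.42 through 10.53 to 10.71 in sham and from 10.36 through 10.46 to 10.57 in HF-HI. It fell by 0.09 (adjusted p = 0.0323), and differed by 0.02 (adjusted p = 0.489) with the GC trend removed. Without sham replicate 1, 4, 6 or 7 or HF-HI replicate 5, Atp13a3 was not called (adjusted p at most 0.0699). Both annotated copper pumps lie outside the table, and of 10 listed genes of copper handling 2 were in it, of which the metallothionein Mt1 rose by 0.37 (adjusted p = 0.000124), or by 0.22 with the GC trend removed.

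Over the 38 pump genes, the difference rose with exonic GC content (Spearman rho 0.449), close to the value over the 5539 genes with a GC content (0.480). The members share libraries, so this is a description across genes. Of the 28 called pump genes, 21 kept their direction and their call with the GC trend removed, a share not set beside that of all genes. Among them were all 7 of the 38 whose groups did not overlap, against 13.5% of all genes without overlap. Lack of overlap and a kept call rest on the same values, so neither adds support to the other. Those 7 were Atp6v0c, Atp6v0a1, Atp6v1g2, Atp2b2, Atp2a2 and Atp11a, higher in HF-HI, and Atp9b, lower in HF-HI.

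**Figure D5:**
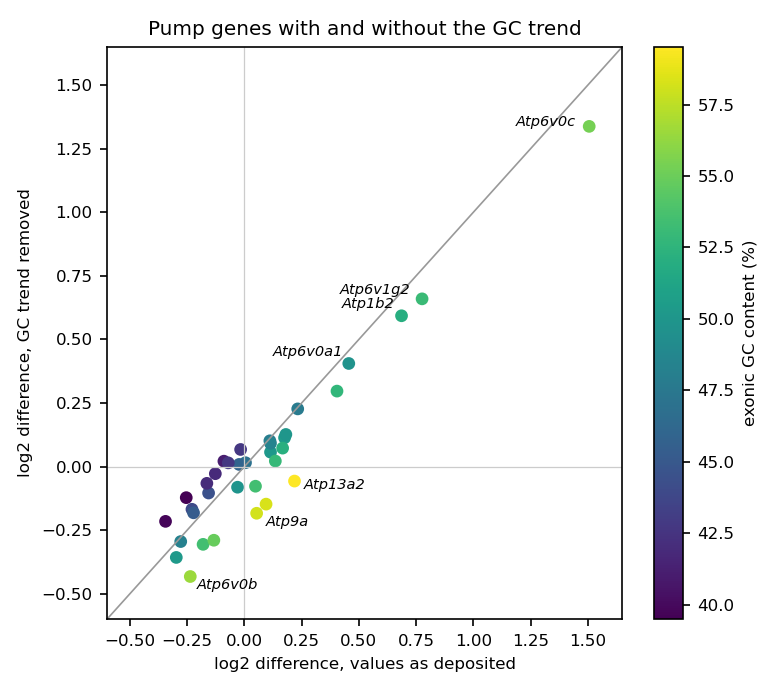
Log2 difference, HF-HI minus sham, of 35 of the 38 pump genes as deposited (horizontal) and after each library's trend on GC content was removed (vertical), coloured by exonic GC content in percent; the diagonal marks equal values. Genes rich in GC such as Atp9a and Atp13a2 drop below 0, while Atp6v0c stays at 1.34.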

How the data were processed

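Per the study's methods, the authors made stranded, ribosome-depleted RNA libraries from cortex, used STAR for alignment to mm10 and eXpress for transcript counts, and then applied DESeq2 normalization. The deposited values are variance-stabilized log2 levels, 1 per Ensembl gene and library, which are not counts, and a count test was therefore not used. Every column was matched to a library by the group and replicate number in its name. Symbols, exonic lengths and GC content came from GENCODE vM21, and promoters from RefSeq. Groups (10 sham, 11 HF-HI libraries) entered a linear model in limma 3.58.1 (R 4.3.3, eBayes with a trend, two-sided, Benjamini-Hochberg adjustment over all 5544 genes, adjusted p under 0.05). GC trends were removed by a lowess curve of span 0.3 per library. In data simulated for HF-HI against sham, with 200 of 5544 genes shifted by 0.5, 199 were recovered and 4 unchanged genes were called; adding a simulated GC trend raised the wrong calls to 2285, and its removal left 4 among 5539 genes. The simulated trend was the same straight line in every library of a group, and the noise was independent between genes. In the real libraries the slopes varied and 66.3% of genes were called, so the simulation does not show how well the removal works here. Removing the trend also removes any biological difference that follows GC content. Total depth is unknown, and relative depth was read from the spacing of values, so precision rests on the spread between mice (median SD within a group 0.104 for all genes and 0.107 for pump genes).

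The members and gene lists were chosen with earlier results of these data known. Every member may be named; full values are given for the 2 called members with the largest absolute difference of V1, V0, the Na/K pump, the calcium pumps and the flippases, the largest called accessory and P5 gene, and members whose sign turned with the GC trend removed while called in either fit. Atp6v0b was added after its values were seen. Of each list, the called gene with the largest difference is named. A few genes that these rules name are not reported here. Dmxl1, Dmxl2, Ostm1, the Sv2 genes and genes that overlap a member were added after their values were seen. Alternatives were an adjusted p of 0.1, a minimum difference of 0.25, the Wilcoxon rank-sum test, eBayes with no trend, median centring, quantile normalization, omission of the lowest quartile, GC and length trends, the replicate block, depth as a covariate and each library left out. The forms of V0 minus V1 without Atp6v0c or Atp6v1g2 and with the GC trend removed were chosen after seeing the data.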

Additional observations from a re-analysis of the deposited data

Results flagged for a closer look

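The sham value of Atp1b2 in replicate 4 was 9.54, against 9.15 in the next highest of the 10 sham libraries, a gap of 0.558 of the group's range, which is past the 95% limit of Dixon's test for 10 samples. Chance gives such a value in about 1 of 20 groups, so among the sham groups of 38 pump genes it would not be rare. Atp1b2 remained higher in HF-HI in every fit that left out 1 library, by 0.63 to 0.74. That limit is for 10 samples and does not apply to the larger HF-HI group. There, replicate 9 (relative depth 0.573) was the lowest library in some genes. It had Atp6v0a1 at 12.26 (next lowest 12.44), Atp8b2 at 9.78 (10.06), Atp6v1g2 at 10.56 (10.86) and Atp6v0e2 at 11.12 (11.34). Each of these genes kept its call in every fit that left out 1 library.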

How the results depend on the processing

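No alternative gave a pump gene a call opposite to the main one. With each library left out in turn, 26 to 29 pump genes were called. Atp13a3 and Atp2c1 lost the call as given above, Atp8a1 gained one without sham replicate 4 or HF-HI replicate 2, and Atp13a1 without HF-HI replicate 9. The calcium pump median was 0.048 to 0.11 over these fits, lowest without HF-HI replicate 3; Atp1b3 ranged from -0.011 to 0.022, Atp2b1 from -0.044 to 0.0089 and Atp6v1b2 from -0.040 to 0.0049. A minimum difference of 0.25 left 7 pump genes higher and 4 lower, with 4 V1, 2 V0, 1 calcium pump and 0 flippase genes (at an adjusted p under 0.05 alone, 4 flippase genes).

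Centring libraries on their medians lowered the median of all genes to -0.06 and split the called pump genes 12 higher to 15 lower, with medians of -0.025 for pump genes, 0.028 for calcium pumps and 0.032 for flippases, and with Atp2b3 at -0.0036 and Atp1b3 at -0.047. Quantile normalization gave 13 and 15, medians of -0.022 (pump genes) and 0.044 (calcium pumps), and Atp1b3 at -0.044. With the GC trend removed 11 pump genes were higher and 13 lower, and the medians of V0, the Na/K pump and flippases were 0.093, 0.11 and 0.018; the signs of Atp6v1b2 (0.0083), Atp2b1 (0.067), Atp13a3 (0.021), Atp8a1 (0.014), Atp9a (-0.18), Atp2b3 (-0.077), Atp13a1 (-0.15) and Atp13a2 (-0.057) turned. With GC and length trends removed, 5 V1 genes were called (Atp6v1f, Atp6v1d and Atp6v1g1 lost the call, as did Atp6ap2, Atp6v0a2, Atp8a2, Atp13a3 and Atp2c1), the medians were -0.018 (pump genes), -0.068 (V1), 0.023 (calcium pumps) and -0.031 (flippases), and Atp6v1b2 (0.0063), Atp2b1 (0.0027), Atp9a (-0.20), Atp2b3 (-0.064), Atp13a1 (-0.10), Atp13a2 (-0.075) and Atp8b2 (-0.014) turned. The replicate numbers do not pair the samples: correlations of same-numbered libraries over 10 pairs ran from -0.31 to 0.364, and 0 sham libraries correlated best with their own number. The replicate block called the same 28 pump genes, with Atp1b3 at -0.00028. The replicate block with the GC trend removed called 10 higher and 13 lower, with medians of 0.094 (V0), 0.10 (Na/K pump) and 0.011 (flippases), and turned Atp6v1b2 (0.012), Atp2b1 (0.071), Atp13a3 (0.021), Atp9a (-0.17), Atp2b3 (-0.075), Atp13a1 (-0.14), Atp13a2 (-0.057) and Atp8a1 (0.014). Relative depth as a covariate put Atp2b1 at 0.00065 and left Atp13a3, Atp2c1 and Atp8b2 without a call. Read counts were not analysed here, so counting error is unknown. The causes of these changes were not tested.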
